A study of Mus musculus with 6 samples.

Results

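The genes described here encode 10 enzymes that make serine, move its single carbon units through folate, and use them for purine synthesis and methylation: Psph, Shmt1, Shmt2, Mthfd1, Mthfd1l, Mthfd2, Aldh1l2, Mat2a, Ahcy and Gart. They were chosen by gene symbol, with earlier results of these data known. All 10 were found among the 22105 rows with Ensembl gene identifiers in the deposited expression table. The table held 6 RNA-seq libraries of RAW264.7, a mouse macrophage-like tumour line. In 3 libraries the cells had received phosphate buffered saline (PBS), and in the other 3 the CM-PEG-PLGA@DOX/R848 nanoparticle at 2 µg/mL of DOX equivalent, each for 24 h. DOX is doxorubicin, a topoisomerase poison, and R848 is resiquimod, which activates Toll-like receptors; the labels do not expand CM. No group received the carrier, DOX or R848 alone, so their parts cannot be told apart, and since the labels do not call the replicates separate cultures, each p-value reflects the spread among these libraries alone, which may be technical.

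Serine hydroxymethyltransferases transfer a carbon from serine to tetrahydrofolate and release glycine. Mitochondria oxidise that carbon to formate, the cytosol takes formate up again into folate, and the resulting formyl and methylene groups serve purine and thymidylate synthesis, or, as methyl groups, the methionine cycle. The pathway is known for its high activity in proliferating cells and, in macrophages, for supplying glycine, glutathione and S-adenosylmethionine during inflammatory activation.

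Sums of FPKM (fragments scaled by transcript length and by library size) lay between 451056 and 469220 per library. PBS libraries listed 12678 to 12872 genes above 0 and nanoparticle libraries 15723 to 15989. All 8 macrophage markers examined were above 1 FPKM in every library, and their summed level was 3276 to 3402 FPKM in PBS and 1354 to 1418 FPKM in nanoparticle libraries. They did not move together: 6 fell and 2 rose, and 100% passed the test described below, beside 77.2% of all tested genes. The risers were Adgre1, from 1.77 ± 0.177 to 12.4 ± 1.16 FPKM, and Fcgr1, from 35.2 ± 1.87 to 39.8 ± 1.42 FPKM (SD, n = 3). The largest falls were in Csf1r, from 296 ± 7.93 to 49.1 ± 1.61 FPKM, Lyz2, from 1503 ± 32.2 to 395 ± 8.95 FPKM, and Cd14, from 667 ± 26.1 to 239 ± 12.4 FPKM. Markers of fibroblasts, epithelium, T cells, B cells and endothelium stayed at or under 0.821 FPKM per gene. The part of the macrophage marker shift in the results below was not tested.

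After nanoparticle treatment, transcripts of 7 of the 10 enzymes were lower, 1 was higher and 2 did not pass the test. The largest falls were in Mthfd1l and Mthfd1, the formate-handling enzymes of mitochondria and cytosol, at 4.53-fold and 3.89-fold as ratios of mean FPKM. Gart of purine synthesis fell 2.10-fold, Ahcy and Mat2a of the methionine cycle 1.74-fold and 1.60-fold, and the mitochondrial enzymes Mthfd2 and Shmt2 1.49-fold and 1.26-fold. Psph, which completes serine synthesis, rose. Shmt1, the cytosolic serine hydroxymethyltransferase, and Aldh1l2 did not pass. As these are bulk libraries, a change in all cells and a change in some cells cannot be told apart.

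The test was limma on log2(FPKM + 1), with Benjamini-Hochberg adjustment over the 10229 genes whose mean reached 1 FPKM and a threshold of 0.05, and all 10 enzyme genes passed that filter. Most tested genes differed between these groups of libraries: 77.2% were called, 42.7% higher and 34.5% lower, and the groups did not overlap at 78.8%. Among the enzymes 8 were called and 8 had groups that did not overlap, shares close to these backgrounds, while 7, or 70%, were lower. Their median log2 fold change was -0.62, beside 0.08 over all tested genes. Fold changes on this scale understate the change of low genes. The enzymes, and the gene lists set beside them below, were chosen with earlier results of these data known. Comparisons of these sets with all tested genes are therefore descriptions only.

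**Figure D1:**
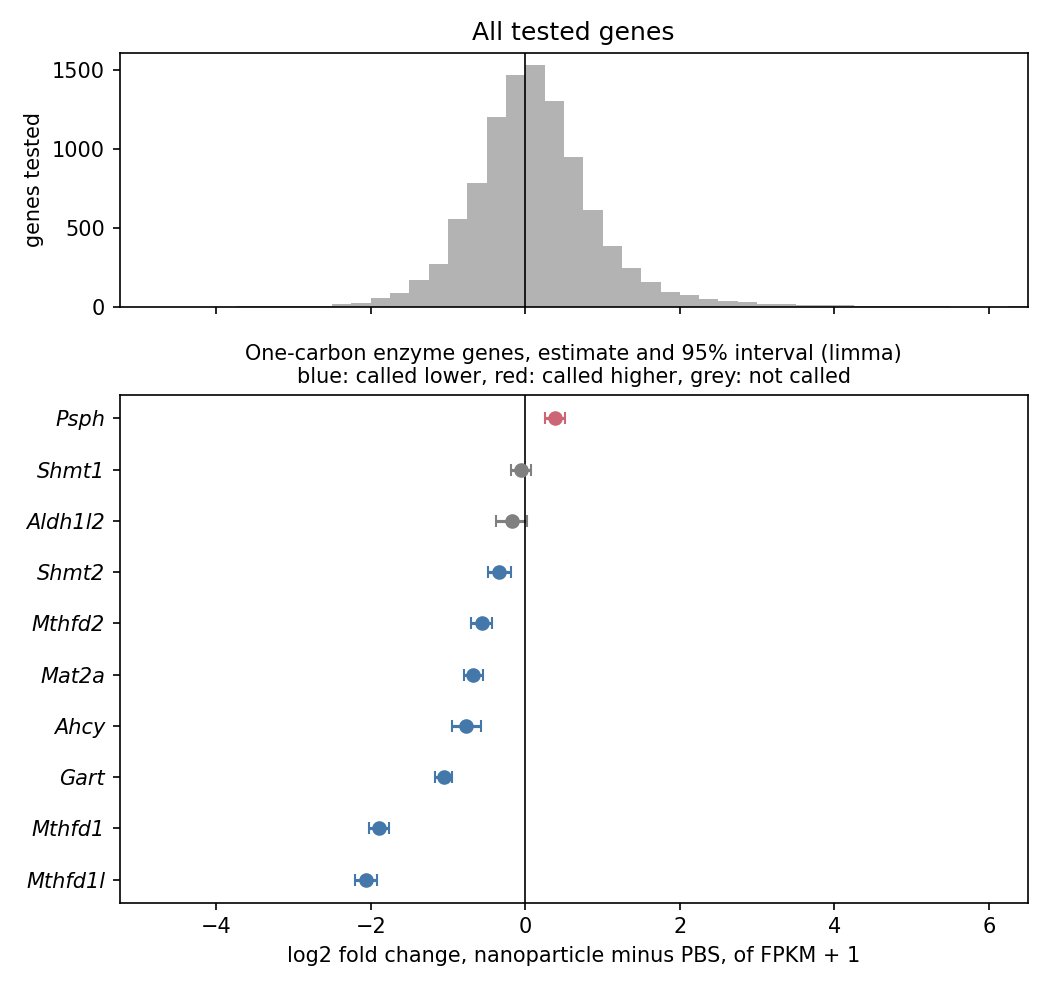
The upper panel counts all tested genes by log2 fold change, nanoparticle minus PBS, of FPKM + 1. The lower panel gives each enzyme gene's estimate with its 95% interval from limma: 7 genes lie below 0, from Shmt2 at -0.34 to Mthfd1l at -2.07, Psph lies above at 0.38, and the intervals of Shmt1 and Aldh1l2 cross 0.

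Psph (ENSMUSG00000029446, chromosome 5, 129765558 to 129787449, GRCm38) encodes phosphoserine phosphatase, the last step from the glycolytic intermediate to serine. It stood at 42.1, 45.0 and 43.6 FPKM in the PBS libraries and at 58.9, 58.0 and 54.7 FPKM in the nanoparticle libraries. Every nanoparticle library was above every PBS library, and the rise was 0.38 ± 0.06 on the log2 scale (SE, limma adjusted p = 1.2e-04). Its annotated exons share 10.4% of their bases with Cct6a, a chaperonin gene on the opposite strand. Cct6a was the more abundant and went the other way, from 227 ± 6.01 to 185 ± 4.99 FPKM (SD, n = 3). The sources used here do not say if counting was stranded, so fragments of the pair cannot be told apart.

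The earlier steps of serine synthesis moved against Psph. Phgdh, phosphoglycerate dehydrogenase, which commits carbon to serine, fell from 245 ± 13.7 to 114 ± 12.5 FPKM (SD, n = 3), or by 1.10 ± 0.08 on the log2 scale (SE, limma adjusted p = 8.6e-07). Psat1, the aminotransferase between Phgdh and Psph, fell from 194 ± 2.45 to 108 ± 1.67 FPKM. In PBS libraries both stood above Psph by several fold, and in nanoparticle libraries the 3 genes were closer together, with Psph at 57.2 ± 2.23 FPKM. Of the longest Phgdh transcript, 47.4% of 75-base windows recur in transcripts of 13 other genes, so its level is uncertain.

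Shmt2 and Shmt1 encode the mitochondrial and the cytosolic serine hydroxymethyltransferase. Shmt2 (ENSMUSG00000025403, chromosome 10, 127517123 to 127522444) was the most abundant of the 10 transcripts in every library, at 243, 228 and 224 FPKM with PBS against 198, 181 and 171 FPKM with nanoparticle. The groups did not overlap, and Shmt2 fell by 0.34 ± 0.07 on the log2 scale (SE, limma adjusted p = 9.4e-04). Shmt1 (ENSMUSG00000020534, chromosome 11, 60788104 to 60811718) was listed at 24.0, 24.6 and 24.9 FPKM with PBS and at 22.7, 24.9 and 23.2 FPKM with nanoparticle. These ranges overlap, and the log2 difference was -0.05, with a 95% interval from -0.19 to 0.08 (limma adjusted p = 0.42). Upper quartile scaling, which lowers the median of all tested genes by 0.11, put Shmt1 at -0.17 and past the threshold (limma adjusted p = 0.025). The Shmt1 exons share 4.74% of their bases with Smcr8 on the opposite strand, which rose from 10.2 ± 0.809 to 19.9 ± 2.11 FPKM.

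**Figure D2:**
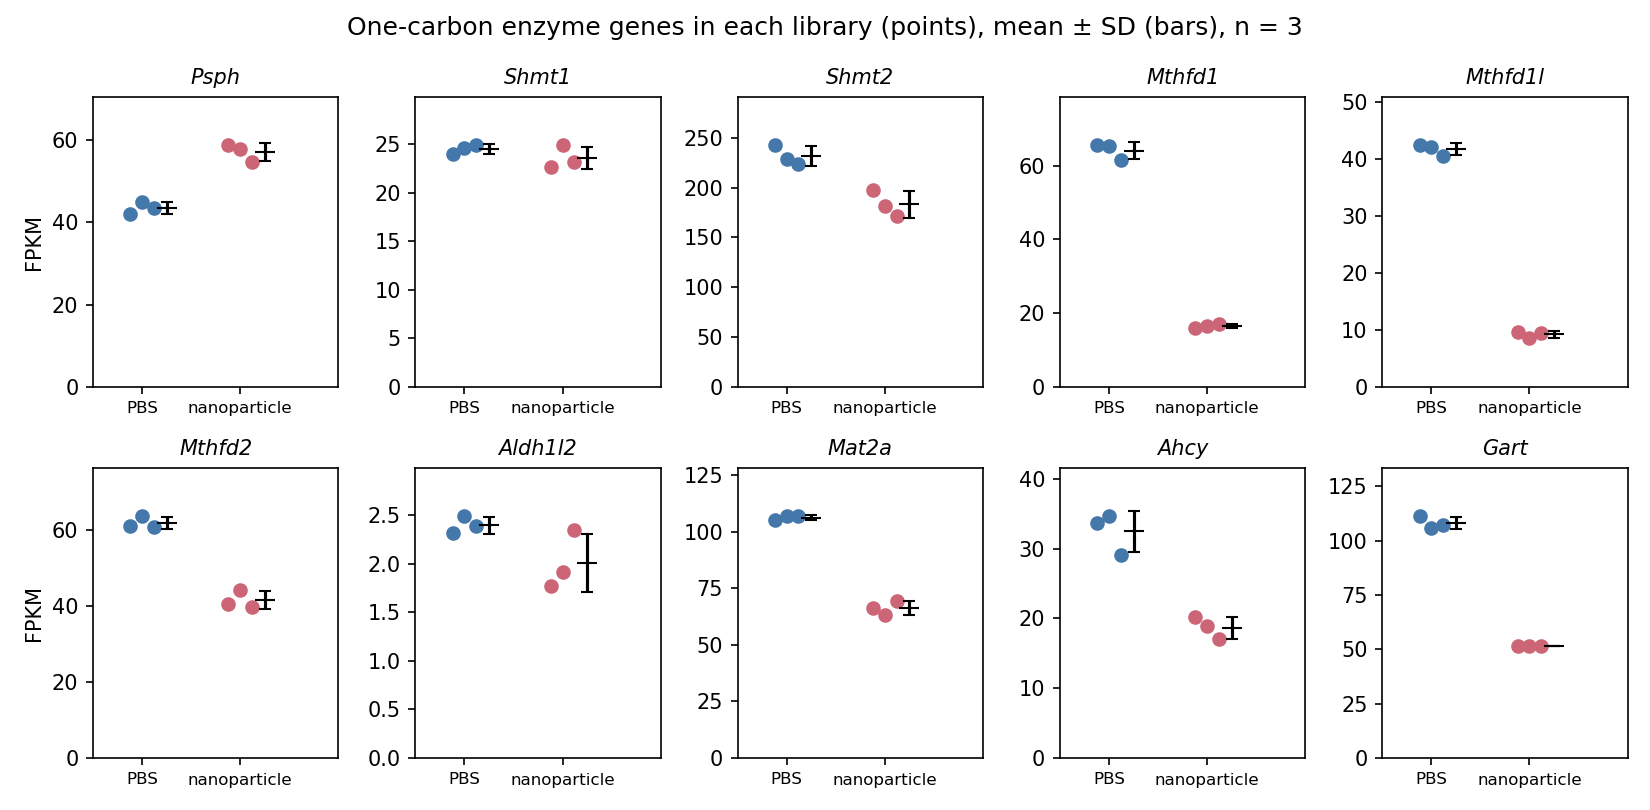
FPKM of each enzyme gene in the 3 PBS and 3 nanoparticle libraries, 1 point per library, with the group mean and SD beside them and axes starting at 0. The groups are apart for 8 genes and overlap for Shmt1 and Aldh1l2, where nanoparticle replicate 3 stands highest of its group at 2.35 FPKM.

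Mthfd1l (ENSMUSG00000040675, chromosome 10, 3973118 to 4167081) encodes the mitochondrial formyltetrahydrofolate synthetase, the enzyme that releases formate from mitochondria. Its PBS libraries held 42.5, 42.2 and 40.5 FPKM and its nanoparticle libraries 9.67, 8.55 and 9.42 FPKM. No nanoparticle library came near the PBS range, and the gene fell by 2.07 ± 0.06 in log2 units (SE, limma adjusted p = 2.9e-09). Only 0.5% of the tested genes had a log2 fold change this low or lower.

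Mthfd1 (ENSMUSG00000021048, chromosome 12, 76255298 to 76319803) encodes the cytosolic enzyme that joins formate to tetrahydrofolate and interconverts the resulting formyl, methenyl and methylene forms. It was listed at 65.7, 65.3 and 61.4 FPKM with PBS and at 16.0, 16.5 and 17.0 FPKM with nanoparticle. As for its mitochondrial relative, the groups were far apart, and Mthfd1 fell by 1.90 ± 0.06 in log2 units (SE, limma adjusted p = 2.2e-09), at percentile 0.8 of the tested genes. No 75-base window of the longest transcript of Mthfd1 or Mthfd1l recurs in another annotated gene.

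Upstream sequence was taken from RefSeq (GRCm38.p6) for 9 of the 10 genes. The 250 bases before the RefSeq start are printed for Mthfd1l, Mthfd1 and Gart, the enzymes with the largest falls, 5′ to 3′ on the gene's strand, because they share a direction and can be compared for promoter motifs. Capitals mark a CCAAT box, letters CCAAT on either strand. The windows are chr10:3972825-3973074 (plus strand), chr12:76254982-76255231 (plus strand) and chr16:91646973-91647222 (minus strand), and none overlaps an annotated exon of its own gene in GENCODE M21.

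Mthfd1l: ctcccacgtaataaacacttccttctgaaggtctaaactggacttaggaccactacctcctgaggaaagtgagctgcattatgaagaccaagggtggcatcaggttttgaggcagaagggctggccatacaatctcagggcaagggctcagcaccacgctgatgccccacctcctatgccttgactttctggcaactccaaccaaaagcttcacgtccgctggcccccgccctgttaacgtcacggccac

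Mthfd1: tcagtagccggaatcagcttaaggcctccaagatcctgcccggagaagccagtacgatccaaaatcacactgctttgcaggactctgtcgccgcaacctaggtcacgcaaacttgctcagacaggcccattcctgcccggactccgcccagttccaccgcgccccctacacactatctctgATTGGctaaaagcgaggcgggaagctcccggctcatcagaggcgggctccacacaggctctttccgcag

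Gart: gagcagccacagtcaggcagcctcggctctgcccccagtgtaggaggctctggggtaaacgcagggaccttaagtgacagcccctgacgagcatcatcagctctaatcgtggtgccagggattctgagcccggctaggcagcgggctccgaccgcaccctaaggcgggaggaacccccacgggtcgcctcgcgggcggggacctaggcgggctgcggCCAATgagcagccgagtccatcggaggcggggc

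The CCAAT box lies 69 to 65 bases before the start in Mthfd1, on the opposite strand, and 33 to 29 bases before it in Gart. The Mthfd1l window holds no such match. The RefSeq starts lie 66, 43 and 20 bases before the GENCODE gene starts in Mthfd1, Mthfd1l and Gart, so the windows and distances depend on the annotation. Over the 9 genes, 7 windows hold at least 1 match (Ahcy, Gart, Mat2a, Mthfd1, Mthfd2, Psph and Shmt1), against 33.8% of 32544 windows of the same length over all genes. The 7 include Psph, which rose, and Shmt1, which did not pass, though 196 bases of the Psph window and 49 of the Shmt1 window lie in annotated exons of the same gene. The windows over all genes were not chosen by expression, and their median GC was 52.4%. Those of the 9 ran from 40.8% in Shmt2 to 68.0% in Gart. As neither was matched, the shares are a description only. The letters TGATGNAA, bound by ATF4 with a C/EBP partner, occur in 3.4% of all windows and the E-box CACGTG, bound by MYC and others, in 6.03%, counting both strands, and neither occurs in any of the 9. The 3 motifs share no letters in these windows, as only CCAAT was found. A match is a description of the letters, not of binding.

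Mthfd2 (ENSMUSG00000005667, chromosome 6, 83305691 to 83325908) encodes the mitochondrial methylenetetrahydrofolate dehydrogenase and cyclohydrolase, upstream of Mthfd1l in the same compartment. Its levels were 61.2, 63.8 and 61.0 FPKM under PBS, then 40.6, 44.3 and 39.8 FPKM under nanoparticle. Again the groups did not overlap, but the fall, 0.57 ± 0.06 on the log2 scale (SE, limma adjusted p = 1.1e-05), was smaller than in Mthfd1l, and the 95% intervals of the log2 fold changes, -0.70 to -0.43 for Mthfd2 and -2.21 to -1.92 for Mthfd1l, do not meet. Mthfd2l, a related mitochondrial dehydrogenase, was low and did not pass (3.53 ± 0.307 and 3.97 ± 0.211 FPKM, limma adjusted p = 0.16).

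Aldh1l2 (ENSMUSG00000020256, chromosome 10, 83487450 to 83534140) encodes the mitochondrial formyltetrahydrofolate dehydrogenase, which oxidises the carbon unit to CO2 and makes NADPH. It was the least abundant of the 10, at 2.31, 2.49 and 2.39 FPKM under PBS and 1.77, 1.91 and 2.35 FPKM under nanoparticle. Nanoparticle replicate 3 lay inside the PBS range and the other nanoparticle libraries below it. The log2 difference was -0.18, with a 95% interval from -0.39 to 0.03 (limma adjusted p = 0.10). It passed without nanoparticle replicate 3 (-0.26, limma adjusted p = 0.022), with upper quartile scaling (-0.26, limma adjusted p = 0.027) and with median-ratio scaling (-0.23, limma adjusted p = 0.035). D10Wsu102e on the opposite strand covers 14.1% of the Aldh1l2 exonic bases and was listed at 0.608 ± 0.0185 and 0.874 ± 0.0565 FPKM.

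FPKM is a level per length, so these enzymes can be set against one another within a library. The ratio of Shmt2 to Shmt1 was 10.1, 9.28 and 8.97 in PBS and 8.72, 7.29 and 7.39 in nanoparticle libraries, so the mitochondrial form stayed the more abundant, by a smaller margin. The ratio of Mthfd1l to Mthfd1 moved little, from 0.651 ± 0.00765 to 0.559 ± 0.0439 (SD, n = 3), since both fell. By contrast, Mthfd2 stood at 1.44 to 1.51 times Mthfd1l in the PBS libraries and at 4.20 to 5.18 times in the nanoparticle libraries. No ratio overlapped between the groups, but neither did 78.8% of all tested genes. For Shmt2 to Shmt1 the gap was narrow, 8.97 in PBS against 8.72 in nanoparticle libraries. No test was run on these ratios.

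Summed over Shmt2, Mthfd2, Mthfd1l and Aldh1l2, mitochondrial transcripts held 338 ± 10.8 FPKM in PBS and 236 ± 13.7 FPKM in nanoparticle libraries, and Shmt2 made up 68.6% ± 0.948 and 77.6% ± 1.35 of that sum (SD, n = 3). The cytosolic sum of Shmt1 and Mthfd1 was 88.6 ± 1.97 and 40.1 ± 1.37 FPKM. Within it Mthfd1 fell and Shmt1 did not pass the test. The ratio of the mitochondrial to the cytosolic sum was 3.89, 3.75 and 3.79 in PBS and 6.46, 5.70 and 5.55 in nanoparticle libraries, higher in all 3.

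**Figure D3:**
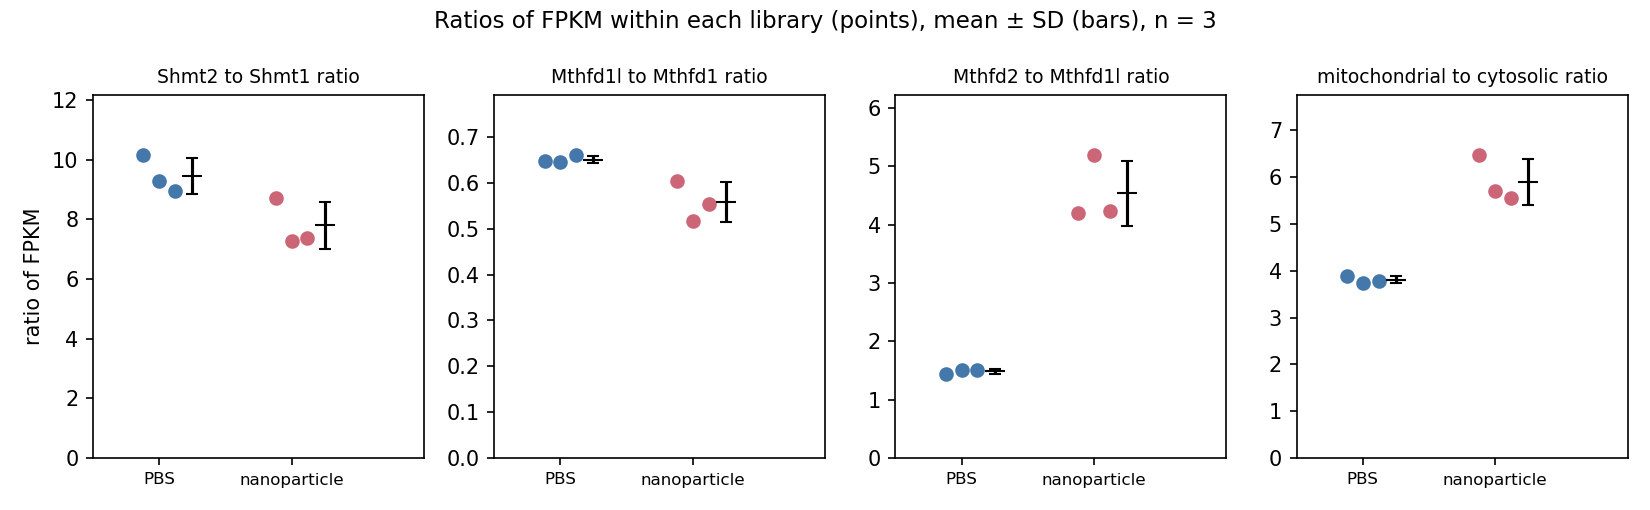
Ratios of FPKM within each library for pairs of enzyme genes and for the summed mitochondrial (Shmt2, Mthfd2, Mthfd1l, Aldh1l2) over cytosolic (Shmt1, Mthfd1) genes, 1 point per library, with mean and SD. Mthfd2 over Mthfd1l moved from 1.49 ± 0.0393 to 4.54 ± 0.561, and the mitochondrial over cytosolic ratio from 3.81 ± 0.0747 to 5.90 ± 0.490.

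Gart (ENSMUSG00000022962, chromosome 16, 91621186 to 91646952) encodes a protein with several activities of purine synthesis, among them the transfer of a formyl group from folate. It was listed at 111, 106 and 107 FPKM with PBS and at 51.4, 51.7 and 51.4 FPKM with nanoparticle. The nanoparticle libraries were nearly equal and well under the PBS libraries, and the log2 change was -1.05 ± 0.05 in log2 units (SE, limma adjusted p = 4.0e-08). An antisense gene model, Gm15964, covers 19.7% of the Gart exonic bases, and no row of its own was used here.

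Purine synthesis genes outside the 10 enzymes were mostly lower. Of 12 found in the table, all tested, 10 fell and 1 rose, and the median change was -0.75 in log2 units. The share lower was 83.3%, beside 34.5% of all tested genes. Atic, which carries the other formyl transfer of the pathway, fell from 96.9 ± 0.652 to 47.3 ± 1.05 FPKM (limma log2 fold change -1.02). Pfas, which acts between the formyl transfer of Gart and ring closure, fell from 26.8 ± 1.68 to 9.06 ± 0.166 FPKM, and Adss1, an adenylosuccinate synthase, from 66.2 ± 4.94 to 19.5 ± 1.70 FPKM. Impdh2, of the guanine branch, went the other way, from 172 ± 2.80 to 210 ± 4.92 FPKM (log2 fold change 0.29, limma adjusted p = 4.1e-04). Of its longest transcript, 69.3% of 75-base windows recur in a pseudogene, so that level is uncertain. Ndufaf3, which shares 1.56% of its exonic bases on the opposite strand, was listed at 15.5 ± 0.351 and 4.95 ± 0.677 FPKM. The guanine branch did not move as 1: Impdh1 fell from 43.3 ± 1.89 to 25.3 ± 1.27 FPKM (limma log2 fold change -0.75), and Gmps did not pass (limma adjusted p = 0.48).

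In the methionine cycle, Mat2a makes S-adenosylmethionine, the methyl donor, and Ahcy removes the S-adenosylhomocysteine left after methyl transfer. Mat2a (ENSMUSG00000053907, chromosome 6, 72432799 to 72439558) stood at 105, 107 and 107 FPKM with PBS and at 66.3, 63.4 and 69.4 FPKM with nanoparticle. All nanoparticle libraries were lower, by 0.67 ± 0.05 in mean on the log2 scale (SE, limma adjusted p = 1.6e-06). Particl, a gene model on the opposite strand, covers 11.3% of the Mat2a exonic bases and has no row used here. Mat2b, the regulatory partner of the Mat2a enzyme, rose from 25.8 ± 0.574 to 34.5 ± 0.285 FPKM (limma log2 fold change 0.40).

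Ahcy (ENSMUSG00000027597, chromosome 2, 155059310 to 155074497) was listed at 33.7, 34.7 and 29.1 FPKM with PBS and at 20.1, 18.8 and 17.0 FPKM with nanoparticle. The groups did not overlap, and the log2 change was -0.77 ± 0.08 (SE, limma adjusted p = 1.7e-05). The level itself is uncertain, since 74.4% of 75-base windows of its longest transcript recur in 3 other genes. The closest, called Ahcyl in the table (Gm4737 in GENCODE M21, tagged there as a retrogene), was listed higher than Ahcy, at 79.0 ± 6.38 and 46.5 ± 4.21 FPKM. Ahcy held 28.5% to 29.8% of the sum of both in every library. That sum fell from 111 ± 9.24 to 65.2 ± 5.76 FPKM (log2 change -0.77, limma adjusted p = 1.3e-05; an alternative added after seeing the data), the same direction as Ahcy alone.

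Of 11 other methionine cycle genes 6 were tested, with 3 lower, 2 higher and a median log2 change of -0.10. The share called was 83.3%, beside 77.2% of all tested genes, and the share lower 50%, beside 34.5%. Mtap, which returns methylthioadenosine to methionine, fell from 42.6 ± 1.35 to 22.2 ± 0.925 FPKM, and Ahcyl2, an Ahcy-like protein gene, rose from 10.9 ± 0.427 to 15.3 ± 1.15 FPKM. Ahcyl1, a more abundant Ahcy-like protein gene, fell from 62.7 ± 3.85 to 54.3 ± 4.05 FPKM. Cth, the last enzyme from homocysteine to cysteine, was the only tested transsulfuration gene and rose from 2.19 ± 0.201 to 4.89 ± 0.529 FPKM. Cbs, the enzyme before it, was below the filter.

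Folate handling moved both ways. Of 17 listed genes 11 were tested, with 3 higher, 2 lower, 6 not passing and a median log2 change of 0.07. The share called was 45.5%, beside 77.2% of all tested genes. Slc19a1, the reduced folate carrier, fell from 49.7 ± 1.68 to 21.2 ± 3.03 FPKM. Ggh, the hydrolase that trims the glutamate tail of folates, rose from 9.81 ± 0.559 to 14.0 ± 1.04 FPKM (log2 fold change 0.48, limma adjusted p = 2.6e-04). Tyms, thymidylate synthase, was listed at 27.8 ± 1.03 and 29.3 ± 2.11 FPKM (log2 difference 0.07, 95% interval -0.08 to 0.22, limma adjusted p = 0.37). Ggh, Tyms, Mthfd2l, Gldc, Cbs, Slc1a5, Sfxn1, Sfxn3, Srr, Impdh1, Gmps and Ahcyl1 were named after their values were seen. Mtfmt, the mitochondrial methionyl-tRNA formyltransferase, fell by 0.18 (limma adjusted p = 0.024), a call lost without PBS replicate 2, PBS replicate 3 or nanoparticle replicate 2 (limma adjusted p of 0.051, 0.10 and 0.10).

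Glycine cleavage, another mitochondrial source of folate carbon, had 2 of 4 genes above the filter. Gcsh, its lipoyl carrier protein, fell from 87.5 ± 3.38 to 35.0 ± 1.58 FPKM (log2 fold change -1.30, limma adjusted p = 2.9e-08). Dld, the dehydrogenase it shares with other complexes, was listed at 76.8 ± 3.58 and 84.2 ± 7.78 FPKM and did not pass (limma adjusted p = 0.13). It passed with the replicate block (adjusted p = 0.026) and without nanoparticle replicate 1 (adjusted p = 0.018). Gldc, the decarboxylase that starts the reaction, was below the filter, at or under 0.546 FPKM in every library.

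Serine transport was divided as well. Of 8 genes of serine synthesis and transport other than Psph, 3 were higher and 4 lower, a share called of 87.5% beside 77.2% of all tested genes, and the median log2 change was -0.02. Lower were Phgdh, Psat1, Slc1a5 and Sfxn1. Higher were Slc1a4, Sfxn3 and Srr, serine racemase, which is no transporter. Slc1a4, a neutral amino acid transporter that takes up serine, rose from 1.34 ± 0.109 to 4.95 ± 0.410 FPKM (limma log2 fold change 1.35). Slc1a5, a more abundant transporter, fell from 153 ± 2.00 to 110 ± 7.39 FPKM. Sfxn1 fell from 46.4 ± 1.15 to 39.8 ± 2.45 FPKM, and Sfxn3 rose from 8.32 ± 0.0527 to 13.5 ± 0.779 FPKM. Over the 6 neighbouring lists together, 40 of 54 genes in the table were tested, 20 fell and 10 rose, and the share called, 75%, was close to the 77.2% of all tested genes.

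**Figure D4:**
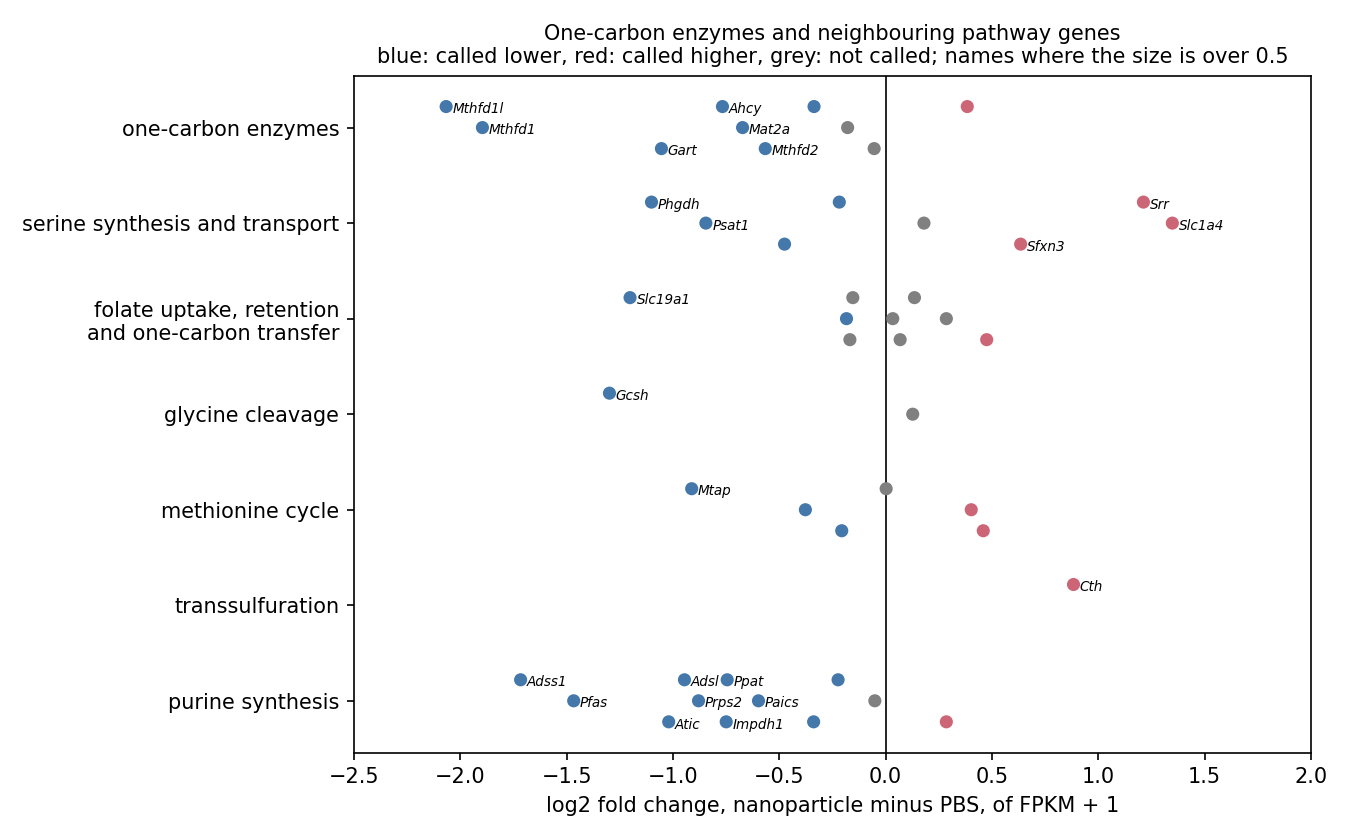
Log2 fold change, nanoparticle minus PBS, of the tested genes reported here among the one-carbon enzymes and 6 neighbouring lists, 1 point per gene, coloured by its limma call. Purine synthesis lies mostly below 0 (10 of 12 lower), whereas folate handling has Slc19a1 at -1.20 and Ggh at 0.48.

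Atf4 and Myc encode transcription factors known to regulate many of these enzymes. Atf4 rose from 135 ± 2.25 to 157 ± 2.29 FPKM (log2 fold change 0.21, limma adjusted p = 2.3e-03), a call lost with upper quartile scaling (0.09, limma adjusted p = 0.088). Myc rose from 2.02 ± 0.152 to 5.33 ± 0.693 FPKM (log2 fold change 1.06, limma adjusted p = 4.2e-06). Of the enzymes only Psph rose with them, and their part in the enzymes' levels was not tested.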

How the data were processed

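RNA of 6 RAW264.7 libraries was isolated with TRIzol and made into mRNA libraries by a BGI protocol, per the labels' protocols. The authors deposited 1 column of FPKM per library; no header names the unit, and FPKM was inferred from values that were not whole and whose sums differed. Per the submitters' processing notes the tools include STAR and featureCounts and the builds GRCm38 and mm10, with no versions. One column name adds a suffix to its library's name, whose meaning no source used here gives. Total depth is not given either: at the best step sought, at most 34% of low values in a library lay within 0.05 fragments of a whole multiple, so fragments were not recovered and no count test was run. The 0.427% to 0.498% of FPKM in rows without Ensembl identifiers was left out.

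Tests used limma 3.58.1 (R 4.3.3) with an intensity trend on log2(FPKM + 1), two-sided, with treatment as the only term, on genes whose mean reached 1 FPKM, and were checked on simulated data. The simulated libraries were independent and few of their genes changed, so that check does not cover technical replicates or changes in most genes. Intervals are 95%. Deviations of same-numbered libraries from their group means correlated across genes at 0.13, 0.12 and 0.35, against -0.26 to 0.13 for other pairs. Only the pair of replicates numbered 3 stood above all other pairs. The replicate number was also fitted as a block. Alternatives covered pseudocount, filter, scaling, variance trend and leaving out each library. Positions, overlaps and shared windows come from GENCODE M21 (GRCm38), read with Python 3.11.15 and pandas 2.3.3; plots used matplotlib 3.10.9. Members and lists were chosen with earlier results of these data known. All members are named, and of each list the 3 genes with the smallest p plus 1 against its majority, except 2 genes of the folate list, which are not reported here and not plotted but stay in the counts.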

Additional observations from a re-analysis of the deposited data

How the results depend on the processing

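The 7 enzymes called lower and Psph, called higher, kept direction and call in all 15 preset alternatives, and so did Ahcy when summed with its near-identical copy, an alternative added after seeing the data. Over the 10 enzymes the counts were 1 higher and 7 lower in every alternative except upper quartile scaling (1 and 9), median-ratio scaling (1 and 8) and the fit without nanoparticle replicate 3 (1 and 8), where Shmt1 or Aldh1l2 passed as well. The replicate block gave 4609 genes higher and 3742 lower, against 4366 and 3530, and among the enzymes, the genes chosen by the naming rule, Atf4 and Myc it changed only the call of Dld. Mtfmt and Atf4 lost their calls in the alternatives given beside them, and none of these genes reversed. Genes named after their values were seen, overlapping partners, markers and the polyamine and glutathione genes were not followed through the alternatives. Upper quartile scaling moved the median of all tested genes by -0.11 and the share of called genes that were higher from 55.3% to 47.3%. A pseudocount of 10 lowered the log2 fold change of the low genes Slc1a4 (1.35 to 0.40), Cth (0.88 to 0.29) and Myc (1.06 to 0.35) without ending a call. Aldh1l2, Slc1a4, Cth and Myc were not tested with a minimum mean of 5 FPKM. The depth behind the FPKM is unknown, so no counting error could be given.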

Other observations

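Branches that draw on the methionine cycle and on cysteine were examined with lists chosen after results of these data were known. Polyamine synthesis takes its aminopropyl groups from S-adenosylmethionine. Of 11 polyamine genes tested 4 rose and 6 fell, a share called of 90.9% beside 77.2% of all tested genes. Among genes of polyamine breakdown, Sat1, spermidine/spermine acetyltransferase, rose from 113 ± 4.57 to 478 ± 5.93 FPKM (SD, n = 3, limma adjusted p = 7.3e-10), and Smox, spermine oxidase, from 18.8 ± 1.63 to 68.1 ± 7.36 FPKM, whereas Paox, polyamine oxidase, was listed at 2.47 ± 0.239 and 1.67 ± 0.799 FPKM and did not pass (limma adjusted p = 0.053). The aminopropyl transferase genes were lower, Srm falling from 181 ± 4.41 to 83.1 ± 7.88 FPKM and Sms from 38.8 ± 4.73 to 25.1 ± 2.00 FPKM. Odc1, ornithine decarboxylase, rose from 411 ± 2.75 to 600 ± 14.4 FPKM, and its antizyme genes moved apart, Oaz1 from 506 ± 25.2 to 249 ± 23.6 FPKM and Oaz2 from 33.6 ± 0.703 to 93.0 ± 4.76 FPKM.

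Of 9 genes of glutathione synthesis, turnover and amino acid exchange 5 rose and 2 fell, a share called of 77.8%, close to the 77.2% of all tested genes. Gss, glutathione synthetase, rose from 20.7 ± 1.24 to 34.9 ± 1.52 FPKM, and Chac1, which degrades glutathione, from 2.30 ± 0.211 to 7.77 ± 0.950 FPKM. Gsr, glutathione reductase, fell from 55.5 ± 0.243 to 19.2 ± 0.562 FPKM. Slc7a11, the cystine exchanger, was listed at 2.64 ± 0.300 and 2.88 ± 0.0155 FPKM and did not pass (limma adjusted p = 0.33).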
